A study of Homo sapiens with 6 samples.

Results

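The 10 genes described here are the core of the Notch pathway in MRC5 lung fibroblasts: the receptors *NOTCH1*, *NOTCH2* and *NOTCH3*, the ligands *JAG1*, *JAG2* and *DLL1*, and the target genes *HES1*, *HEY1*, *HEY2* and *HEYL*. They are the rows of the count table that carry these symbols, a set drawn up by role in the pathway with earlier results of these data known, and they are 10 of the 58676 gene identifiers in the table. Of these, 8 had the 10 summed counts needed for a test, and *DLL1* and *HEY2* had no count in any library and are listed as not measured. MRC5 is an established line of human foetal lung fibroblasts. In all 6 libraries the fibroblasts had spent 24 h in conditioned media (CM) from ATIIER:KRASV12 cells, a human alveolar epithelial type II (ATII) line in which 4-hydroxytamoxifen (4-OHT) switches RAS on. The CM came from control ATII cells in 3 libraries (control ATII CM) and from ATII cells given 4-OHT for 24 h in the other 3 (4-OHT ATII CM). The comparison asks how fibroblasts answer to signals released by RAS-activated epithelial cells. None of the 6 libraries came from MRC5 cells given 4-OHT itself. An effect of 4-OHT left in the CM therefore cannot be told apart from an effect of such signals. Each arm used the same fibroblast line, both arms received ATII CM, and no library of MRC5 cells without CM was analysed here. The labels do not say that the replicates came from separate cultures, so that p values measure the spread between these libraries, which may be technical.

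Notch receptors are single-pass membrane proteins that are activated by ligands of the Jagged and Delta families on neighboring cells. Ligand binding lets ADAM proteases and then γ-secretase cut the receptor, and the freed intracellular domain enters the nucleus, where it joins the DNA-binding protein RBPJ and Mastermind coactivators to switch on genes such as those of the HES and HEY repressor families. Without the intracellular domain, RBPJ binds co-repressors at the same genes. NOTCH2 and NOTCH3 are receptors of mesenchymal cells, including fibroblasts, pericytes and vascular smooth muscle, and Jagged-Notch signaling has been studied in myofibroblast formation and lung fibrosis.

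Promoters of the target genes are shown first, because RBPJ is known to bind the letters TGGGAA, most often as GTGGGAA. Of the 10 genes, 8 matched a RefSeq promoter, with *DLL1* and *HEY1* as the missing entries. TGGGAA was searched on both strands from 250 bases before to 50 bases after the RefSeq start, and every GTGGGAA also counts as a TGGGAA. The windows of *HES1*, *HEYL* and *HEY2* held TGGGAA at 2 places each, and those of *NOTCH1*, *NOTCH2*, *NOTCH3*, *JAG1* and *JAG2* held none. Among all 35116 RefSeq promoters of the same length, 24.0% held TGGGAA and 6.25% held GTGGGAA. The 3 target promoters are printed with that of *NOTCH2*, the only member called a DEG by edgeR, from base -250 to base 20 on GRCh38.p14, with +1 as the first base of the gene and no base 0. Capitals mark TGGGAA or GTGGGAA, or their reverse complements TTCCCA or TTCCCAC where the motif lies on the other strand.
HES1 (chr3:194135898-194136167, plus strand): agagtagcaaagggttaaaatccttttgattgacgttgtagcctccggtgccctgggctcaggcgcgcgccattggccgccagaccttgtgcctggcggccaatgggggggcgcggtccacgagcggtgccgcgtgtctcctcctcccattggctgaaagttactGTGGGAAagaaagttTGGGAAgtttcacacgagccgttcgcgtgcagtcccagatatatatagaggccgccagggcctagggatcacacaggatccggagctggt
HEYL (chr1:39639624-39639893, minus strand): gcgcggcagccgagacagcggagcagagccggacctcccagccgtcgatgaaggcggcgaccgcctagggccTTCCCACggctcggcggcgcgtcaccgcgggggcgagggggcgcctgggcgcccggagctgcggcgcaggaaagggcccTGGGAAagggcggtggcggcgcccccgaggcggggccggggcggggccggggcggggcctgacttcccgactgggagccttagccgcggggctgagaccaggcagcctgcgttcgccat
HEY2 (chr6:125749382-125749651, plus strand): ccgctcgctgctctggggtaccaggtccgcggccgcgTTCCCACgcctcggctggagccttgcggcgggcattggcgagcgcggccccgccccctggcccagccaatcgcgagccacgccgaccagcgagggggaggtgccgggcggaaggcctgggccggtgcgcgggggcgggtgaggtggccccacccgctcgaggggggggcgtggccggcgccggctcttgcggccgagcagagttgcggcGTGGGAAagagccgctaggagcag
NOTCH2 (chr1:120069643-120069912, minus strand): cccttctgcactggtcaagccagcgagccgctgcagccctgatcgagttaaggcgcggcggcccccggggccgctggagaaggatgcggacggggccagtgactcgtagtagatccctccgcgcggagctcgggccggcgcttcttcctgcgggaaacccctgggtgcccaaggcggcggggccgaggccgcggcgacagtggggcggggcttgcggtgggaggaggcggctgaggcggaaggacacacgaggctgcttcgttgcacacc

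In *HES1* both matches were on the gene's own strand, GTGGGAA at -85 to -79 and TGGGAA at -70 to -65. In *HEYL* a GTGGGAA lay on the opposite strand at -178 to -172 and a TGGGAA on the gene's strand at -99 to -94. In *HEY2* a GTGGGAA lay on the opposite strand at -213 to -207 and another on the gene's strand from -4 to 3, across the start. These are matches of letters in a window, and no binding was measured. The HES and HEY proteins themselves bind E-box and N-box elements. CACGCG was found 2 times in the *HES1* window, at -120 to -115 and at -47 to -42, and 1 time each in those of *JAG1* and *JAG2*, against 11.4% of all promoters. CACNAG was found 4 times in the *HES1* window and at least 1 time in those of *NOTCH1*, *NOTCH2* and *NOTCH3*, against 38.0% of all promoters. CACGTG, which 7.26% of all promoters hold, was in none of the 8 windows.

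Library totals ranged from 17691849 to 26389449 counts, and 19072 genes with at least 10 summed counts were tested. Levels are given as CPM, which are counts relative to the library total as adjusted by edgeR's TMM factors, and, where genes are compared with each other, as RPKM, CPM per kilobase of the gene's merged exons. Fold changes are given as 4-OHT ATII CM over control ATII CM, so that values above 0 are increases, and a DEG is a gene with an adjusted p under 0.05 in edgeR's quasi-likelihood test with Benjamini-Hochberg adjustment over all genes tested. The square root of the common dispersion, the typical variation of a gene between replicates beyond counting error, was 4.36%. All 9 fibroblast markers had at least 10 counts, with a summed level of 41020 to 44535 CPM with control ATII CM and of 42888 to 44629 CPM with 4-OHT ATII CM. Behind this sum, 4 of them were called higher (*DCN*, *LUM*, *PDGFRA* and *COL3A1*, with log2 fold changes of 0.33, 0.29, 0.22 and 0.18) and 1 lower (*VIM*, -0.10). Of 12 epithelial markers 5 had at least 10 counts, the summed level was 10.5 to 12.5 CPM against 9.32 to 10.8 CPM, and *KRT5*, *SFTPA1*, *NKX2-1* and *ESRP1* were at 0. Of 7 smooth muscle and pericyte markers 6 had at least 10 counts, and their summed level was 701.7 to 719.9 CPM against 701.5 to 726.2 CPM. The most abundant of them was *ACTA2*, and within the list *RGS5* and *LMOD1* were called higher (log2 fold changes of 0.52 and 0.15) and *CSPG4* lower (-0.32). The called fibroblast, smooth muscle and pericyte markers were named after their values were seen. Of 7 endothelial markers 3 had at least 10 counts, and *PECAM1*, *CDH5* and *ERG* were at 0. Their summed level was higher with 4-OHT ATII CM, at 162.9 to 171.9 CPM against 120.7 to 138.4 CPM, nearly all of it from *TEK*, a receptor of angiopoietins (log2 fold change 0.37, edgeR adjusted p = 0.000162). Of 4 immune markers only *CD14* had at least 10 counts, and their summed level was 0.609 to 1.01 CPM against 1.14 to 1.94 CPM. The part of these markers in the results on Notch genes was not tested. In bulk RNA a change in the number of expressing cells and a change of RNA per cell cannot be told apart.

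Of the 10 genes, *NOTCH2* was the only DEG, lower by 17.6% with 4-OHT ATII CM, and no member was called higher. The other 7 genes tested did not pass, among them the receptor *NOTCH3*, the ligand *JAG1* and the targets *HES1* and *HEY1*. Over all genes 5.72% were DEGs, 2.95% higher and 2.76% lower, and with 8 genes tested the 1 called gene is too small a count to set apart from that share. At an unadjusted p under 0.05 *NOTCH2* and *NOTCH1* passed in edgeR, where 3306 of 19072 genes did. *HEYL* did so too, but it had no count with control ATII CM and met the filter on low counts only through the other group, so that it had to differ and is not read against these shares. DESeq2 gave an adjusted p only for *NOTCH1*, *NOTCH2*, *NOTCH3* and *JAG1* among the members and called none of them. Limma-voom called *HEYL* higher and *NOTCH2* lower. Of the 8 fold changes 4 were above 0 and 4 below, with *HEYL*, whose direction the filter fixed, among those above. The median log2 fold change was -0.18 over the 7 members other than *HEYL*, whose fold has no finite estimate. It was -0.069 over all 8 with *HEYL* counted as the highest, and -0.0020 over all genes tested. Among the 7 members other than *HEYL*, the libraries of *NOTCH2* lay wholly below those of control ATII CM and those of 0 lay wholly above, where 10.4% and 11.7% of all genes did so.

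**Figure D1:**
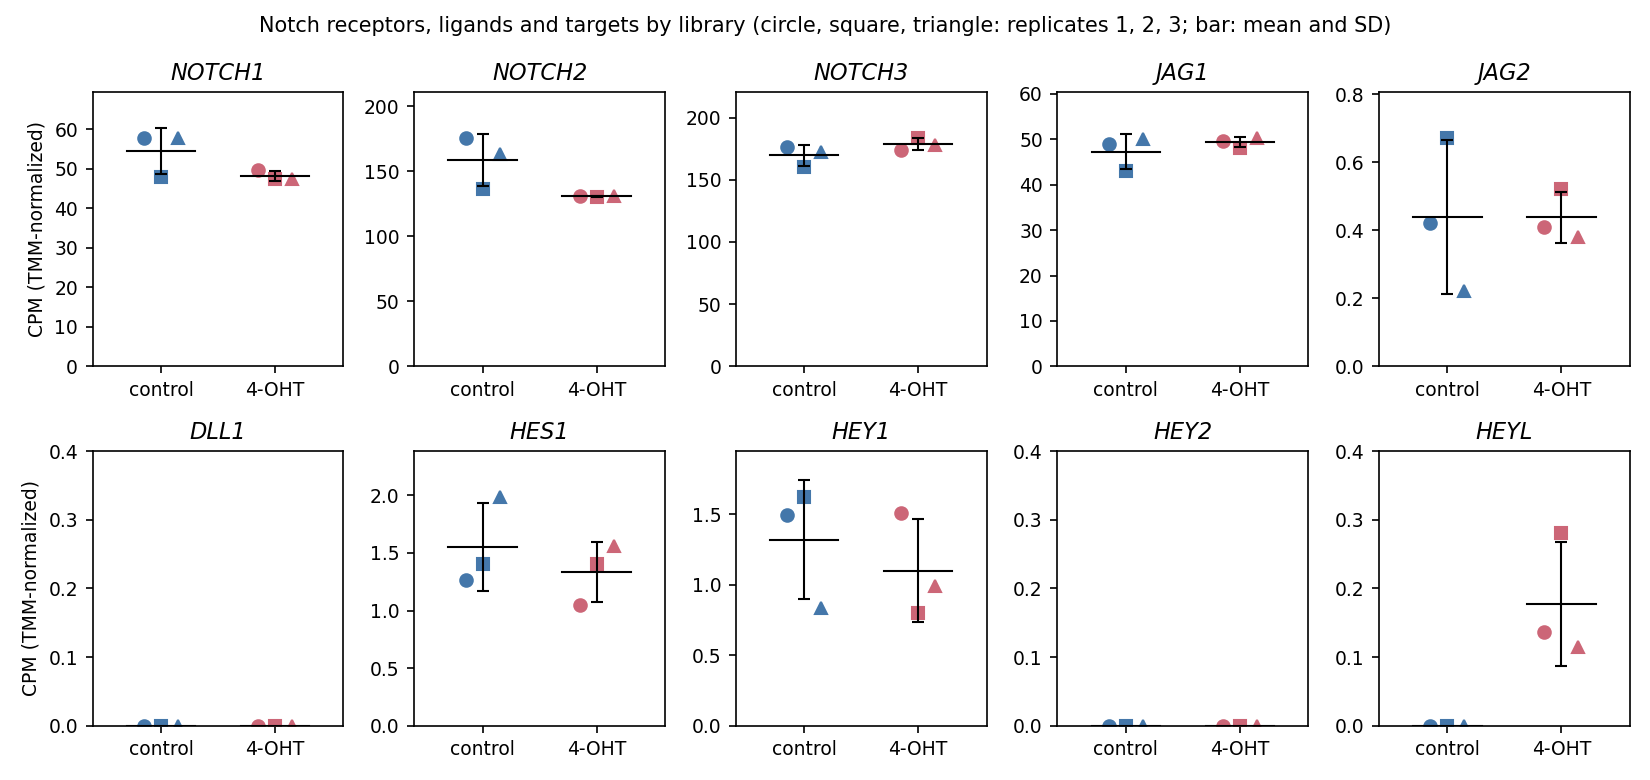
Level of each member in each library, in CPM on its own axis starting at 0, with control ATII CM beside 4-OHT ATII CM, a circle, square and triangle for replicates 1 to 3, and a line with bars for the mean and SD. *NOTCH2* sits between 137 and 176 CPM with control ATII CM and at 131 CPM in every 4-OHT ATII CM library, the groups of *NOTCH3*, *JAG1*, *HES1* and *HEY1* overlap, and *DLL1* and *HEY2* stay at 0.

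All 3 receptors were well expressed. *NOTCH3* (ENSG00000074181, chr19:15159038-15200981, minus strand) had 176, 160 and 173 CPM with control ATII CM and 174, 184 and 178 CPM with 4-OHT ATII CM. The groups overlapped, and the difference did not pass the test (log2 fold change 0.07, SE 0.0404, edgeR adjusted p = 0.399). Its 95% interval ran from -0.972% to 11.6%. NOTCH3 is the receptor best known from pericytes and vascular smooth muscle. No alternative analysis of 17 called *NOTCH3*.

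*NOTCH2* (ENSG00000134250, chr1:119911553-120069626, minus strand) had 176, 137 and 164 CPM with control ATII CM and 131, 131 and 131 CPM with 4-OHT ATII CM. The groups did not overlap, and control replicate 2 was close to them. The mean was 158.7 ± 20.2 CPM with control ATII CM and fell to 131.0 ± 0.335 CPM (SD over 3 libraries each). The log2 fold change was -0.28 (SE 0.0642, edgeR adjusted p = 0.0163), a change of -17.6% with a 95% interval from -25.0% to -9.43%. Counting error alone would give an SD of 2.76 CPM with control ATII CM and of 2.32 CPM with 4-OHT ATII CM. The spread with control ATII CM was thus above counting error, and the libraries of 4-OHT ATII CM lay closer together than counting error alone would place them on average. The call was kept in 11 of 17 alternatives. It was lost with DESeq2 (adjusted p = 0.0719) and when any single library other than control replicate 2 was left out, where the edgeR adjusted p ranged from 0.0516 to 0.0779. Without control replicate 2 the log2 fold change was -0.37 (edgeR adjusted p = 1.74e-06), and without control replicate 1 it was -0.20 (edgeR adjusted p = 0.0717).

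*NOTCH1* (ENSG00000148400, chr9:136494433-136545786, minus strand) had 57.6, 47.8 and 57.8 CPM with control ATII CM and 49.6, 47.5 and 47.4 CPM with 4-OHT ATII CM. Control replicate 2 lay among the libraries of 4-OHT ATII CM, so that the groups overlapped. The log2 fold change of -0.18 did not pass (SE 0.0602, edgeR adjusted p = 0.103). Over the alternatives it ranged from -0.26 to -0.14, and *NOTCH1* was called in 2 of 17, without control replicate 2 (-0.26, edgeR adjusted p = 0.000445) and without the filter on low counts (edgeR adjusted p = 0.00643).

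Control replicate 2 and the other control libraries differed from each other in a way that moved with transcript length. For genes with long exons, control replicate 2 lay below the libraries of 4-OHT ATII CM, and control replicates 1 and 3 lay above them. Deviations are given as log2 CPM minus the gene's mean over the 6 libraries. For *NOTCH2* they were 0.29, -0.07 and 0.19 in control replicates 1 to 3 and -0.13, -0.14 and -0.13 in the replicates of 4-OHT ATII CM. The median deviation of 1314 genes with a mean log2 CPM above 3 and more than 10000 bases of merged exons was 0.051, -0.061 and 0.040 in the control libraries, and -0.016, -0.011 and -0.011 in those of 4-OHT ATII CM. *NOTCH2* has 16807 and *NOTCH1* 10377 bases of merged exons, and both therefore belong to this class, whereas *NOTCH3* has 9394 and *JAG1* 9298. These shorter members were also lowest in control replicate 2. Their deviations in control replicates 1 to 3 were 0.020, -0.118 and -0.012 for *NOTCH3* and 0.019, -0.167 and 0.052 for *JAG1*. After offsets had taken out the trends of the libraries with GC content and length, the *NOTCH2* log2 fold change was -0.22 (edgeR adjusted p = 0.00438). The part of length in the *NOTCH2* difference was not tested beyond this correction.

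**Figure D2:**
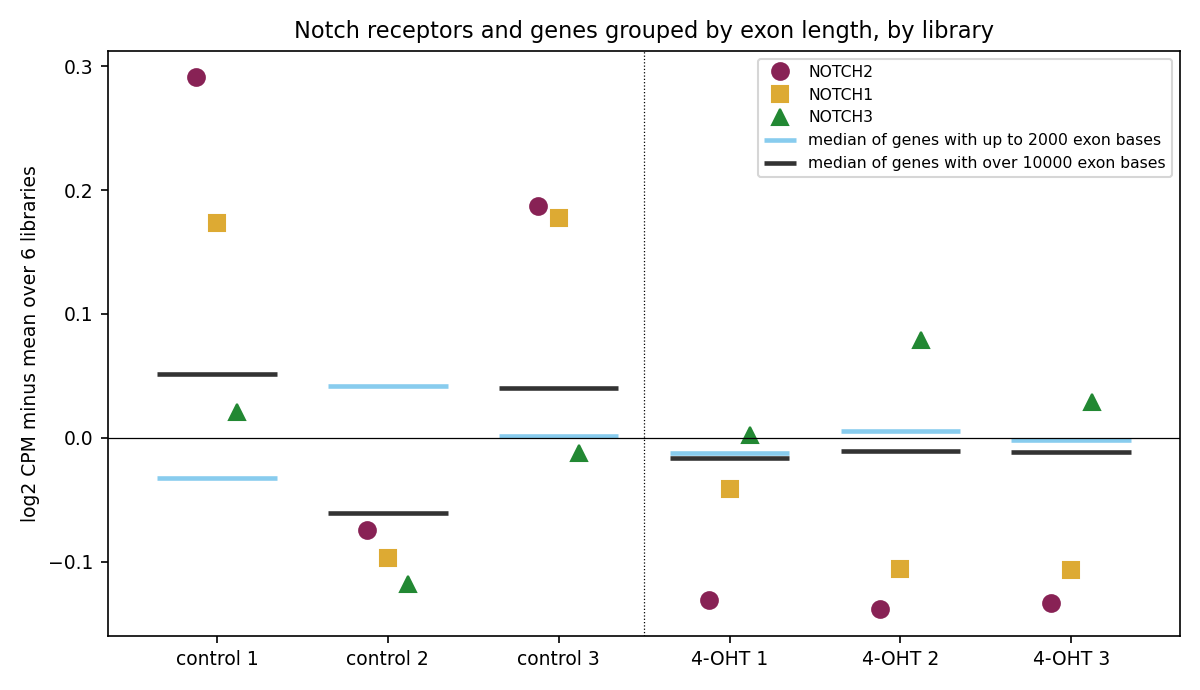
Log2 CPM minus the mean over the 6 libraries (y axis) in each library (x axis), for *NOTCH2*, *NOTCH1* and *NOTCH3* as points and for genes grouped by merged exon length as horizontal lines at the median of each group. Genes with over 10000 exon bases sit at 0.051 and 0.040 in control replicates 1 and 3 and at -0.061 in control replicate 2. *NOTCH2*, *NOTCH1* and also *NOTCH3*, which has fewer exon bases, are lower in control replicate 2 than in the other control libraries.

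Part of *NOTCH2* has near-identical copies on the same chromosome. In the reference transcripts, 205 of the 11326 windows of 100 bases along the canonical *NOTCH2* transcript (1.81%), all within its first 567 bases, were found unchanged in 8 other genes, the NOTCH2NL genes and NBPF genes fused to them. Reads from these windows may be assigned to either gene or dropped. The copy that was in the table, *NOTCH2NLA*, had 7, 7 and 2 counts with control ATII CM and 12, 8 and 10 with 4-OHT ATII CM (log2 fold change 0.65, edgeR adjusted p = 0.577). *NOTCH2NLB*, *NOTCH2NLC* and *NOTCH2NLR* were not analysed here.

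Per length, *NOTCH3* was the most abundant receptor, at 18.1 ± 0.898 RPKM with control ATII CM and 19.0 ± 0.513 RPKM with 4-OHT ATII CM (SD, n = 3 each). *NOTCH2* followed at 9.44 ± 1.2 RPKM and 7.79 ± 0.0200 RPKM. Of the summed RPKM of the 3 receptors, *NOTCH3* made up 54.0%, 57.3% and 54.5% with control ATII CM and 59.6%, 61.3% and 60.4% with 4-OHT ATII CM. The share of *NOTCH2* was 30.1%, 27.3% and 28.9% against 25.1%, 24.4% and 24.9%, and that of *NOTCH1* was 16.0%, 15.5% and 16.5% against 15.4%, 14.3% and 14.6%. By merged exon length none of the 3 shares overlapped between the groups. With canonical transcript lengths those of *NOTCH3* and *NOTCH2* still did not overlap, whereas those of *NOTCH1* did, at 14.10% in control replicate 2 and 14.12% in 4-OHT replicate 1. With 3 libraries a group, an exact permutation test cannot give a p below 0.1, and these shares were not tested. They are parts of the same sum, so that they are not 3 separate results. The RPKM of *NOTCH3* itself overlapped, at 17.1 to 18.8 with control ATII CM and 18.6 to 19.6 with 4-OHT ATII CM. That of *NOTCH1* overlapped too, and that of *NOTCH2* did not. *NOTCH2* and *NOTCH1* belong to the class with the longest exons described above, and *NOTCH3* does not. The part of length in the shares, and in the ratio given next, was not tested. The ratio of *NOTCH3* to *NOTCH2* was 1.79, 2.1 and 1.89 against 2.38, 2.52 and 2.42. With the canonical lengths the mean ratio was 1.42 with control ATII CM and 1.79 with 4-OHT ATII CM, still with *NOTCH3* above *NOTCH2*.

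The members fell in the order *NOTCH3*, *NOTCH2*, *NOTCH1*, *JAG1*, *HES1*, *HEY1*, *JAG2* and *HEYL* by RPKM with control ATII CM. *NOTCH1* (4.6 to 5.57 RPKM) and *JAG1* (4.62 to 5.38 RPKM) overlapped there, whereas with 4-OHT ATII CM *JAG1* (5.18 to 5.41 RPKM) was above *NOTCH1* (4.57 to 4.78 RPKM). With the canonical transcript length, *JAG1* was above *NOTCH1* in both groups. The target genes stood far below their receptors, with *HES1* at a mean of 0.752 RPKM and *HEY1* at 0.409 RPKM with control ATII CM. *JAG2* (0.0595 to 0.0815 RPKM) and *HEYL* (0.0312 to 0.0767 RPKM) overlapped with 4-OHT ATII CM.

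**Figure D3:**
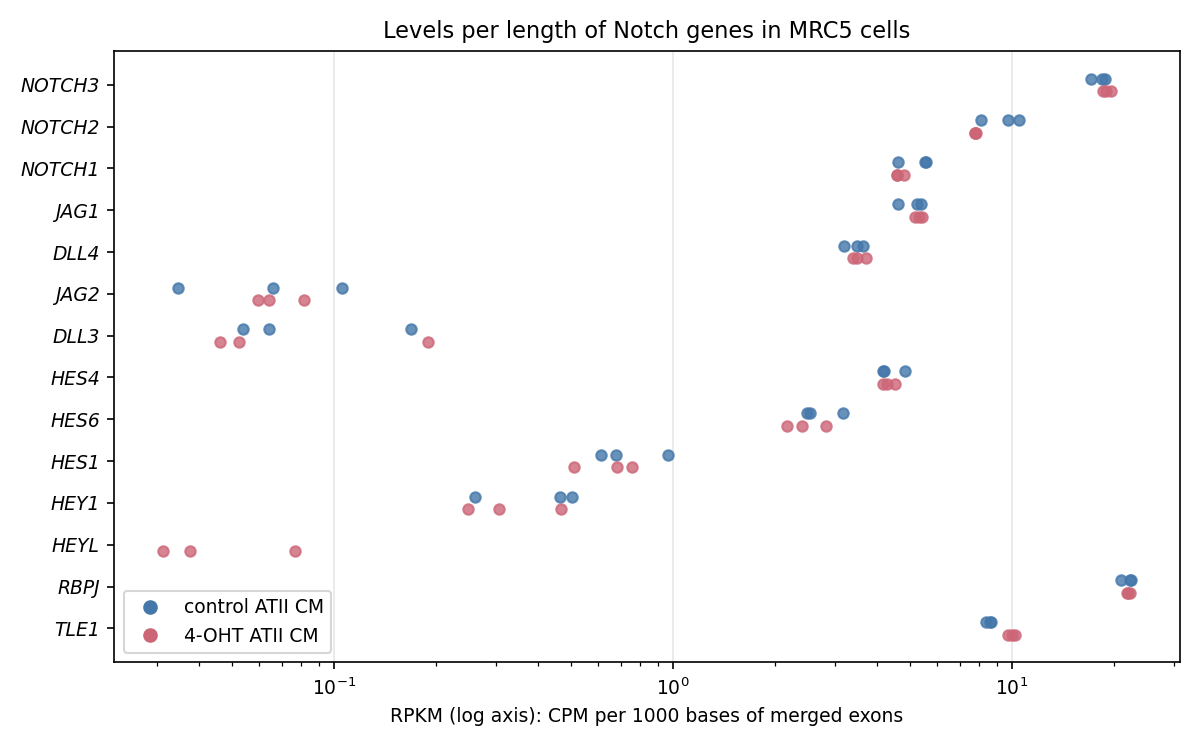
RPKM (x axis, log scale) of the members with counts and of 6 other pathway genes (y axis), with 1 point a library, blue for control ATII CM and red for 4-OHT ATII CM. *NOTCH3*, *NOTCH2*, *NOTCH1* and *JAG1* lie above 4 RPKM in every library, *HES1* and *HEY1* lie below 1 RPKM, and *HEYL* has no point for control ATII CM because it had no count there.

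*JAG1* was the only member ligand at a level that can be compared closely. *JAG1* (ENSG00000101384, chr20:10637684-10673999, minus strand) had 48.9, 42.9 and 50.0 CPM with control ATII CM and 49.5, 48.1 and 50.3 CPM with 4-OHT ATII CM. The groups overlapped (log2 fold change 0.06, 95% interval -0.05 to 0.17, edgeR adjusted p = 0.652), and without control replicate 2 the log2 fold change was -0.0031. *JAG2* (ENSG00000184916, chr14:105140981-105168824, minus strand) had 9, 12 and 5 counts with control ATII CM and 9, 13 and 10 counts with 4-OHT ATII CM. At this depth its log2 fold change of 0.04 had a 95% interval from -0.87 to 0.95 (edgeR adjusted p = 0.978), so that no difference was detectable. *JAG2* shares 6.54% of its windows of 100 bases with an overlapping gene on the same strand, ENSG00000257622. *DLL1* (chr6:170282206-170306565) had 0 counts in all 6 libraries, where 3 counts would be 0.0222 CPM. The Delta-like ligand outside the 10 genes that these cells did express was *DLL4*, at 17.3, 15.2 and 16.6 CPM against 16.6, 17.6 and 16.2 CPM (log2 fold change 0.03, edgeR adjusted p = 0.891). Per length *JAG1* was 1.40 to 1.59 times as abundant as *DLL4* over the 6 libraries. *DLL3* had 3, 3 and 10 counts against 3, 3 and 13, and *NOTCH4*, the remaining receptor, had none.

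The target genes were low or absent. *HES1* (ENSG00000114315, chr3:194136145-194138732, plus strand), whose promoter is printed above, encodes a repressor that is a direct target of Notch in many tissues. It had 27, 25 and 45 counts with control ATII CM and 23, 35 and 41 counts with 4-OHT ATII CM, or 1.27, 1.40 and 1.99 CPM against 1.05, 1.40 and 1.56 CPM. The groups overlapped (log2 fold change -0.21, 95% interval -0.73 to 0.31, edgeR adjusted p = 0.739). Without control replicate 3 the log2 fold change was 0.013. *HEY1* (ENSG00000164683, chr8:79764010-79767863), a repressor downstream of Notch in blood vessels and heart, had 32, 29 and 19 counts against 33, 20 and 26. Its levels of 1.5, 1.62 and 0.838 CPM and of 1.51, 0.802 and 0.989 CPM overlapped (log2 fold change -0.26, 95% interval -0.90 to 0.38, edgeR adjusted p = 0.737), and leaving out 1 library moved the log2 fold change of *HEY1* to between -0.53, without 4-OHT replicate 1, and -0.080, without 4-OHT replicate 2. As percentages the intervals ran from -39.7% to 23.8% for *HES1* and from -46.3% to 29.8% for *HEY1*, so that changes of that size were not detectable at this depth. *HEY2* (chr6:125747664-125761269), a related repressor of cardiovascular development, had no count.

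*HEYL* (ENSG00000163909, chr1:39624153-39639945, minus strand), the third HEY gene and a Notch target described in vascular smooth muscle, had 0 counts in each control library. In 4-OHT ATII CM it had 3, 7 and 3 counts, or 0.137, 0.281 and 0.114 CPM. The groups did not overlap, but *HEYL* passed the filter on low counts only through the group in which it had counts. Its level over the 4-OHT ATII CM group was 3.67 times a floor of 3 counts over the control group (0.0485 CPM). This figure allows no error on its own 13 counts. Because the filter fixed its direction, its test gives no support for a difference (edgeR adjusted p = 0.0536, not called). The same holds for its calls in 3 of the 13 alternatives that gave an adjusted p, whose values ranged from 0.0255 to 0.139. Without 4-OHT replicate 2 it had too few counts to be tested. The result therefore rests on 13 reads or fragments in all.

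**Figure D4:**
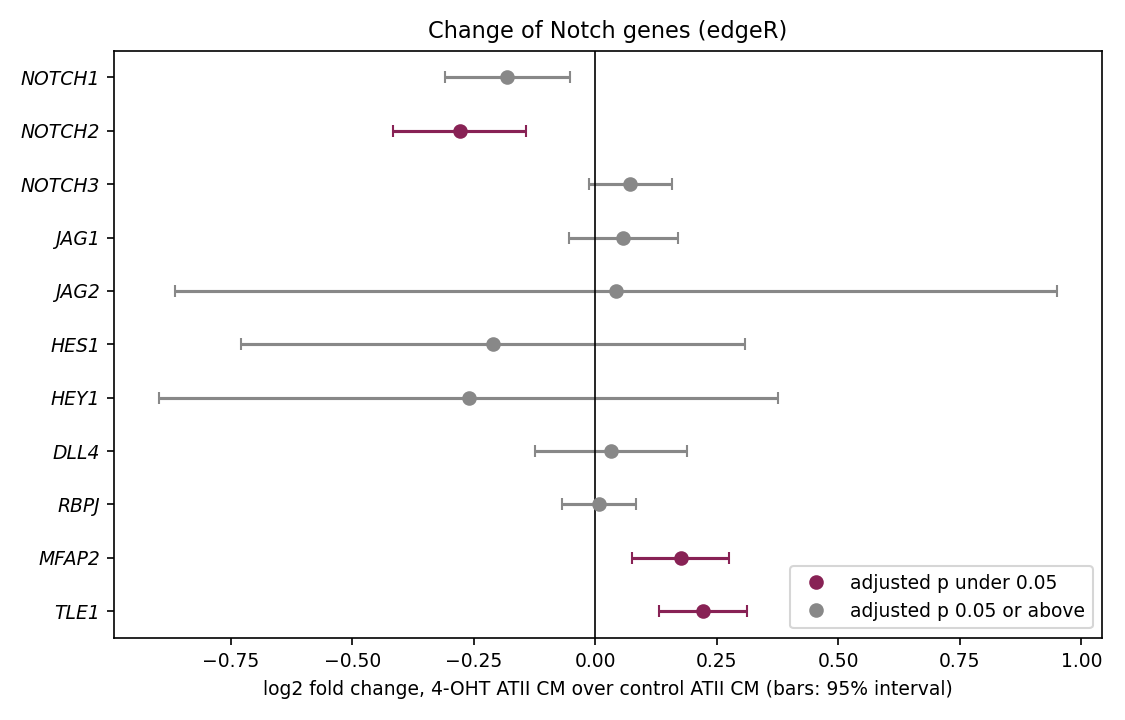
Log2 fold change (x axis, 4-OHT ATII CM over control ATII CM) from edgeR with its 95% interval as a bar, for the members tested other than *HEYL*, whose control libraries had no count, and for 4 other pathway genes (y axis), with genes past the threshold in dark red. The interval of *NOTCH2* runs from -0.42 to -0.14, and those of *JAG2*, *HES1* and *HEY1* are wider and include 0.

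The rest of the pathway was followed in 9 lists of 74 genes with other roles, of which 71 were in the table, 5 were at 0 and 63 were tested. *MFAP2* and *TLE1* were called higher and 1 gene lower, which is 4.76% of the genes tested against 5.72% of all genes. Of the fold changes 31 were above 0 and 32 below, with a median log2 fold change of -0.0014 against -0.0020 over all genes. Of the 63 genes tested, the libraries of 10 lay wholly above and those of 6 wholly below the control libraries, against 11.7% and 10.4% of all genes.

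The genes called higher were a co-repressor and a matrix protein. *TLE1*, a Groucho co-repressor that HES proteins recruit, had 41.1, 42.6 and 42.4 CPM with control ATII CM against 50.2, 47.8 and 49.1 CPM with 4-OHT ATII CM (log2 fold change 0.22, SE 0.0427, edgeR adjusted p = 0.00511). This call was kept in every alternative that uses the threshold on adjusted p alone. *MFAP2*, a microfibril protein reported to bind Jagged and Notch, had 38.5, 40.7 and 38.5 CPM against 42.8, 43.8 and 46.0 CPM (log2 fold change 0.18, SE 0.0471, edgeR adjusted p = 0.0385), and its call was kept in 9 of 17 alternatives. It was lost with DESeq2 (adjusted p = 0.0973), library totals alone, the replicate block (edgeR adjusted p = 0.0561) and thinning, and without control replicate 1 or 3 or 4-OHT replicate 2 or 3.

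The machinery that cuts the receptors was well expressed. All 9 cleavage genes were tested and none was called, with 8 fold changes above 0 and a median log2 fold change of 0.06. *NCSTN*, a subunit of γ-secretase, had 204.4 ± 5.50 CPM against 205.4 ± 4.23 CPM (SD, n = 3 each), and *APH1A*, another subunit, had 113.9 ± 2.83 CPM against 119.6 ± 0.903 CPM (log2 fold change 0.07, edgeR adjusted p = 0.334). Of the glycosylation genes, which modify the receptors' ligand-binding repeats, 4 of 5 were tested and none was called. *POFUT1*, which adds O-fucose, had 117.1 ± 2.71 CPM against 110.4 ± 1.04 CPM (edgeR adjusted p = 0.225), and *RFNG*, a fringe enzyme, had 40.5 ± 2.82 CPM against 40.1 ± 0.350 CPM. All 17 genes of endocytosis and turnover were tested and none was called, with 5 fold changes above 0 and 12 below. The libraries of 2 of these 17 genes lay wholly above and those of 2 wholly below the control libraries, against 11.7% and 10.4% of all genes. Counts this small cannot be set apart from those shares. Named after their values were seen, they were *DTX4* (log2 fold change 0.13, edgeR adjusted p = 0.0631) and *NUMB* (0.10, adjusted p = 0.144) above. Below were *DTX2* (-0.47, adjusted p = 0.0727) and *NEDD4* (-0.14, adjusted p = 0.0652). *DTX2*, *NEDD4* and *DTX4* were each called in some alternatives. By merged exon length the most abundant were *NUMBL*, a NUMB-like adaptor, at 81.4 ± 0.652 CPM against 83.3 ± 2.80 CPM and *ITCH*, a ubiquitin ligase, at 83.3 ± 5.02 CPM against 87.3 ± 1.88 CPM. This order changed with canonical transcript lengths. Per kilobase of these, with control ATII CM, *NUMB* (22.98 CPM) was above *NUMBL* (22.86 CPM), and *ITCH* (12.4 CPM) was below several genes, among them *MIB2* (22.8 CPM).

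The nuclear complex had 9 genes tested and none called, although *EP300*, an acetyltransferase named after its values were seen, was called lower in 4 alternatives. These were the GC content and length offsets with and without the replicate block, no filter on low counts, and leaving out control replicate 2. *RBPJ* itself had 202.7 ± 8.01 CPM with control ATII CM and 203.9 ± 1.84 CPM with 4-OHT ATII CM (log2 fold change 0.0074, edgeR adjusted p = 0.950), and *SNW1*, a cofactor of the complex, had 69.7 ± 1.39 CPM against 66.9 ± 0.534 CPM. The 12 co-repressor genes included *HDAC1*, at 136.2 ± 2.70 CPM against 141.3 ± 1.05 CPM, and *CTBP1*, at 120.7 ± 4.01 CPM against 121.9 ± 1.04 CPM, beside *TLE1*. Of 8 other HES/HEY family genes and direct targets, 4 were tested, none was called, and *HES3*, *HES5* and *HELT* had no count. The most abundant of them per length were *HES4*, at 4.90 ± 0.419 CPM against 4.83 ± 0.208 CPM, and *HES6*, at 5.55 ± 0.768 CPM against 5.01 ± 0.669 CPM. Of 7 noncanonical ligands 5 were tested, and *EGFL7* had 7.90 ± 0.465 CPM against 7.66 ± 0.553 CPM. In the cleavage, glycosylation, turnover, nuclear complex and target lists edgeR gave 1, 2, 5, 1 and 0 genes an unadjusted p under 0.05, and neither DESeq2 nor limma-voom called a gene of them. Exons of several of these genes overlap genes on the other strand, among them *APH1A*, *NCSTN* and *CTBP1*, and the sources used here do not say whether counting used strand.

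**Figure D5:**
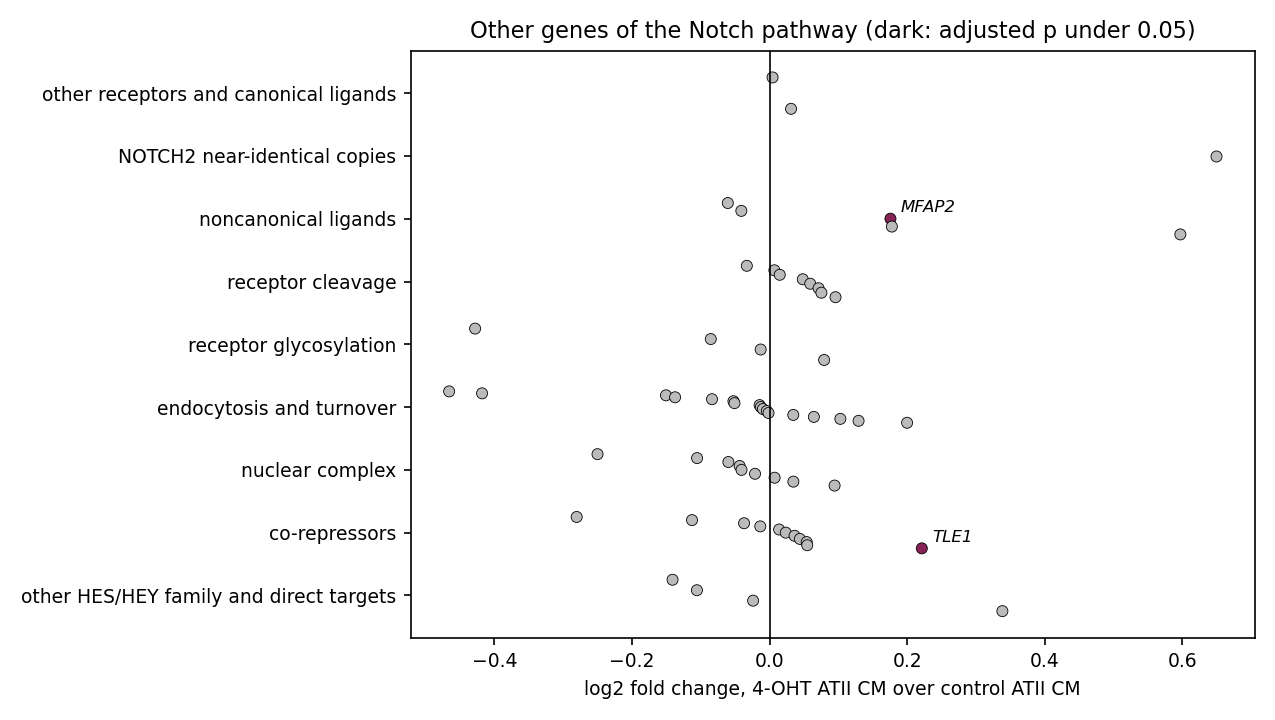
Log2 fold change (x axis, 4-OHT ATII CM over control ATII CM) of the genes reported from the 9 other pathway lists (y axis), with 1 point a gene and genes past the threshold in dark red. *TLE1* and *MFAP2* lie on the higher side, and points farther from 0 than these are genes that did not pass the test.

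Among the 5 genes whose values over the 6 libraries were most like those of *NOTCH2* were *MAP1A*, *NAV1*, *DNAJC9* and *SPTAN1*. Likeness was the root mean square difference of centred log2 CPM over the 6 libraries among 13050 genes that averaged 1 CPM or more, and it was 0.0221 for *MAP1A* and 0.0280 for *SPTAN1* against a median of 0.194. Because they were picked for this likeness, their fold changes and their low values in control replicate 2 follow from the choice. Their log2 fold changes were -0.25 for *MAP1A*, -0.30 for *NAV1*, -0.27 for *DNAJC9* and -0.26 for *SPTAN1*, and *DNAJC9* was not called (edgeR adjusted p = 0.0641). Of these 4, *DNAJC9* was the only gene with fewer than 10000 bases of merged exons.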

How the data were processed

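RNA-Seq counts of MRC5 lung fibroblasts from 6 libraries, 3 in control ATII CM and 3 in 4-OHT ATII CM, were analysed, with groups taken from the sample labels. Per the submitters' processing notes and the study's methods, reads were trimmed by the authors (Trim Galore), aligned against GRCh38 (HISAT2 2.1.0) and assigned to genes (featureCounts 1.6.5). The values the authors deposited are raw counts per gene, without normalization, together with merged exon lengths. The annotation release, the strand setting and the treatment of reads with several matches are not given in the sources used here. GENCODE 44 named 58207 of the 58676 identifiers. Positions were taken from the deposited table (GRCh38), and counts of 45 identifiers listed on both X and Y were added together. Promoters are from RefSeq (GRCh38.p14), whose gene starts can differ from those of the deposited table.

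Genes with at least 10 summed counts were compared after TMM normalization by the quasi-likelihood test of edgeR 4.0.16 (R 4.3.3), with group as the only term and Benjamini-Hochberg adjustment at 0.05 over all genes tested. Standard errors were computed as the log2 fold change divided by the root of F. Alternatives were DESeq2 1.42.0, limma-voom (limma 3.58.1), other size factors, other filters, a replicate block, leaving out each library, thinning to the smallest library, GC content and length offsets, and an added fold of at least 1.2. Level orders of the members and receptor shares were repeated with canonical transcript lengths, an alternative chosen after seeing the data. Library totals of 17691849 to 26389449 counts set the precision, and floors of 3 counts cover counting error only. Replicate pairs differed by more than counting error, at a chi-square of 2.12 to 6.03 times its degrees of freedom.

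The members and lists were chosen with earlier results of these data known. The genes named are all members, every other pathway gene past the threshold, the most abundant genes of each list by merged exon length, the NOTCH2 copies, *NOTCH4*, *DLL3*, *DLL4*, the marker genes of lowest and highest level, and the genes most like *NOTCH2*, the member with the smallest p. The fits were checked on simulated data. Results of some genes that this rule names are not reported here.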

Additional observations from a re-analysis of the deposited data

How the results depend on the processing

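*NOTCH2* stayed lower in all 17 alternative fits and *TLE1* was called in all 17. Beside the main counts of 0 members called higher, 1 lower, 2 other pathway genes higher and 1 lower, the following counts differed. DESeq2 called 0 members lower and 1 other pathway gene higher. Limma-voom called 1 member higher (*HEYL*). Library totals alone and thinning each gave 1 other pathway gene higher. Without the filter on low counts there were 1 member higher and 2 lower, and 4 other pathway genes higher and 5 lower. GC content and length offsets gave 1 member higher, and 4 other pathway genes higher and 3 lower. With a fold of at least 1.2 added, 0 other pathway genes were higher and 0 lower, and 519 of all genes were called in place of 1090. Leaving out 1 library at a time gave 0 to 2 members lower, 1 to 3 other pathway genes higher and 1 to 7 lower, and 533 to 1530 of all genes, with the lowest number without 4-OHT replicate 2 and the highest without control replicate 2. The cause of these shifts was not tested.

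The replicate block was fitted although same-numbered libraries did not deviate together (correlations of -0.014, -0.10 and -0.093), so that the numbers only name libraries. With the replicate block *NOTCH2* was called (log2 fold change -0.27, edgeR adjusted p = 0.0123) and 1 other pathway gene was higher, and the block with GC content and length offsets gave 3 other pathway genes lower. With the block 5.16% of all genes were called.

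Fold changes near 0 changed sign in some fits. *JAG2* was at -0.39 after thinning. *DLL3* was at -0.12 in limma-voom, -0.0014 with library totals alone, -0.017 with the replicate block and -0.20 after thinning, and *RBPJ* at -0.0028 with GC content and length offsets and -0.0027 with the replicate block added. Leaving out 1 library, the log2 fold change ranged from -0.0031 to 0.094 for *JAG1*, -0.30 to 0.45 for *JAG2*, -0.35 to 0.013 for *HES1*, -0.015 to 0.070 for *DLL4*, -0.97 to 0.72 for *DLL3*, -0.094 to 0.015 for *EGFL7*, -0.018 to 0.026 for *NCSTN*, -0.072 to 0.023 for *RFNG*, -0.024 to 0.024 for *RBPJ*, -0.013 to 0.032 for *CTBP1* and -0.066 to 0.048 for *HES4*. It kept its sign but ranged from -0.53 to -0.080 for *HEY1* and from 0.034 to 0.098 for *NOTCH3*. DESeq2 gave no adjusted p for *JAG2*, *HES1*, *HEY1* and *HEYL*. Depth limits what can be said of *JAG2*, *HES1*, *HEY1* and *HEYL*, each with fewer than 2 CPM.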

Other observations

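In 2 large nuclear cofactors of Notch control replicate 2 was also the lowest control library, and they are named here after their values were seen. *EP300*, an acetyltransferase that joins the RBPJ complex, had 82.1, 60.5 and 78.7 CPM in control ATII CM and 61.4, 63.6 and 62.0 CPM in 4-OHT ATII CM (log2 fold change -0.25, edgeR adjusted p = 0.0759), and it was called lower after the GC content and length offsets. *SPEN*, a co-repressor scaffold of RBPJ, had 47.6, 32.4 and 43.9 CPM against 34.2, 34.0 and 34.5 CPM (log2 fold change -0.28, edgeR adjusted p = 0.104). In both genes control replicate 2 lay below every library of 4-OHT ATII CM, while the other control libraries lay above them.

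Without control replicate 2, 9 of the 71 tested Notch genes were called lower, among them *NOTCH1*, *NOTCH2*, *MIB1*, *AAK1*, *EP300*, *CREBBP*, *SPEN* and *NCOR1*. Each of these 9 has more than 10000 bases of merged exons, as do 18 of the 71 genes in all. The 3 genes called higher in that fit (*MFAP2* and *TLE1* among them) are among the 53 with shorter exons. Over all genes in the same fit, 18.3% of those with more than 10000 exon bases and 3.05% of the others were called lower. Called higher there were 3.00% of the long genes and 3.80% of the others. With all 6 libraries, 2 of the 18 long Notch genes were called lower, 1 of them *NOTCH2*. Among all genes, 108 of 1744 long genes and 419 of 17328 others were called lower with all 6 libraries. The part of length, or of control replicate 2, in these differences was not tested.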
